A study of Mus musculus with 4 samples.

Results

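The active zone scaffold mRNAs described here are Bsn, Pclo, Rims1, Rims2, Unc13a, Unc13b, Erc1, Erc2, Ppfia2 and Ppfia3, 10 of the 31053 genes in the count tables. They were taken by symbol after their Ensembl identifiers were matched to GENCODE M21. The list names known families of the compartment and uses no threshold on these data, though it was drawn up with earlier results of them known. The small-subunit ribosomal protein RPS2 was immunoprecipitated with its crosslinked RNA by eCLIP, in which RNA and protein are joined in the cell, the RNA is trimmed with RNase I and an antibody recovers the complex, from primary cortical neurons of wild-type mice. There were 2 RPS2 IP libraries and 2 total RNA libraries, and by the methods total RNA was taken out of the samples before the pulldown. Per the study's methods, the neurons came from C57BL/6J embryos and were grown in plates with floxuridine, which limits dividing cells, so both groups share the strain, the culture and that treatment. By the labels, rRNA was depleted for IP and not for total RNA, while the methods do not say which libraries were depleted, and a step applied to IP alone cannot be told apart from the IP in this design. The question was which mRNAs a ribosomal subunit holds relative to their abundance, as a benchmark for an RNA-editing readout of ribosome binding.

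The active zone is the patch of presynaptic membrane where synaptic vesicles dock, are primed and fuse. Its cytomatrix is built from a few very large multidomain proteins that occur as pairs of paralogs. Bassoon (Bsn) and Piccolo (Pclo) are the giant scaffolds that span the matrix, RIM1 and RIM2 (Rims1, Rims2) bind vesicle-borne Rab3 and calcium channels, Munc13-1 and Munc13-2 (Unc13a, Unc13b) prime vesicles by opening syntaxin, ELKS proteins (Erc1, Erc2) link the RIMs to the scaffold, and liprin-alpha proteins (Ppfia2, Ppfia3) recruit the others to the nascent site.

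The start of each reading frame is shown beside that of its paralog, in the pairs on which the results are ordered. The pairs were given by protein family and were not derived from these bases, and no bases were compared between families. Each line holds the first 30 coding bases, 5′ to 3′, of the principal GENCODE M21 transcript on mm10, and capitals mark the bases that differ from the paralog at the same position.
Bsn: atgggcaacgaggcCagcCtggaGggCgGC
Pclo: atgggcaacgaggcGagcTtggaAggGgAA
Rims1: atgtcCTcGGcCGtGgggccccgAggTcCT
Rims2: atgtcGGcTCcGCtCgggccccgGggCcGC
Unc13a: atgtcTctgctGtgCgtgGgAgtCaaaaAa
Unc13b: atgtcGctgctCtgTgtgCgTgtTaaaaGa
Erc1: atgtaTggAagTgcTCgaTcaGtAGgGaaG
Erc2: atgtaCggGagCgcAAgaAcaAtCAgCaaT
Ppfia2: atgatgtgTgaAgtgatgccCacGatTaAc
Ppfia3: atgatgtgCgaGgtgatgccTacCatCaGc
Bsn and Pclo shared 24 of these 30 bases and Ppfia2 and Ppfia3 also shared 24. Unc13a and Unc13b shared 23, while the RIM pair and the ELKS pair shared 19 each.

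All 10 genes are long and spread over 10 chromosomes. Bsn (ENSMUSG00000032589) lies on the minus strand at chr9:108096022-108190384 with its start codon at chr9:108190256-108190258, and Pclo (ENSMUSG00000061601) on the plus strand at chr5:14514918-14863459 with its start codon at chr5:14515222-14515224. Their reading frames, of 3942 and 5068 codons, were the longest of the members. Rims1 (ENSMUSG00000041670, chr1:22286251-22805994, minus strand) has 1424 codons and Rims2 (ENSMUSG00000037386, chr15:39198261-39684372, plus strand) has 1572. Unc13a (ENSMUSG00000034799, chr8:71624417-71671757, minus strand) has 1712 codons and Unc13b (ENSMUSG00000028456, chr4:43058953-43264871, plus strand) has 1590. Erc1 (ENSMUSG00000030172, chr6:119570796-119848167, minus strand) has 1120 codons and Erc2 (ENSMUSG00000040640, chr14:27622428-28478537, plus strand) has 977. Ppfia2 (ENSMUSG00000053825, chr10:106470339-106935952, plus strand) has 1257 codons and Ppfia3 (ENSMUSG00000003863, chr7:45339122-45367019, minus strand) has 1194. No exon of these genes was overlapped by a gene on the same strand, and reads were counted by strand. The counted exons ran from 7362 bases in Rims1 to 22746 in Unc13b, against a median of 4672 bases over the 12336 genes that passed the low-count filter. All 10 members passed it.

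Library totals were 16460545 and 9941486 counts for IP and 5281196 and 4899718 for total RNA, and Gm42418, a gene that takes reads from ribosomal RNA, held 15.3% to 42.6% of them. Values are given as CPM, counts scaled to a common library size with TMM factors. The neuronal identity of the cultures was checked on marker genes. Summed CPM in total RNA of replicates 1 and 2 was 2269 and 2725 for 4 neuronal markers, 2542 and 2354 for 3 excitatory markers, 1049 and 1072 for 3 inhibitory markers, 2754 and 1229 for 6 astrocyte markers, 60.1 and 4.93 for 6 microglial markers and 81.7 and 66.4 for 7 markers of the oligodendrocyte line. Endothelial markers summed to 1.34 and 1.64 CPM, with Cldn5 at 0 in every library, and markers of dividing cells to 2.23 and 0.658. The replicates thus differed in astrocyte and microglial RNA, and the IP libraries differed the same way, with astrocyte sums of 3383 and 1373 and microglial sums of 60.4 and 6.83.

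Bsn was the most abundant of the scaffold mRNAs per length and Unc13b the least. Per kilobase of counted exon, total RNA held 177 ± 32.8 CPM of Bsn (SD, n = 2, as are all such values here), 200.1 in replicate 1 and 153.7 in replicate 2. Unc13a followed with 62.4 ± 2.06 CPM per kb. Rims1 with 33.3 ± 8.9 and Ppfia3 with 32.1 ± 2.14 came next and overlapped in their ranges, and Pclo had 28.2 ± 0.226, below both Ppfia3 libraries and between the 2 libraries of Rims1. Erc2 with 12.2 ± 0.626, Ppfia2 with 9.84 ± 3.23 and Rims2 with 8.58 ± 1.08 formed a lower tier in which each overlapped its neighbour. Erc1 with 6.35 ± 0.343 and Unc13b with 2.31 ± 1.08 CPM per kb closed the order. Both libraries of Bsn lay above both of Unc13a, and both of Erc1 above both of Unc13b, and with 2 libraries a group the order is a description without a test.

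Per kilobase of counted exon, the same paralog of each family was the higher in both total RNA libraries. Per kilobase, Bsn was 7.05-fold above Pclo in replicate 1 and 5.47-fold in replicate 2. Rims1 was 4.24-fold and 3.46-fold above Rims2, and Erc2 was 1.79-fold and 2.07-fold above Erc1. The ELKS gap was the smallest and rested largely on the counted lengths, 9728 bases in Erc2 and 16271 in Erc1. In CPM, not divided by length, Erc2 was at 115 and 123 and Erc1 at 107 and 99.4. The Munc13 pair was the most unequal, with Unc13a 39.4-fold and 20.7-fold above Unc13b. Ppfia2 was at 0.225 and 0.396 times the level of Ppfia3. The counted length of Unc13b, 22746 bases, joins all its annotated exons, and over its principal transcript of 6354 bases its total RNA level became 8.28 CPM per kb, still the lowest of the 10. Unc13a came to 76.8 CPM per kb over its own principal transcript, so the gap in the Munc13 pair was smaller on that length. On that length scale, chosen after the values were seen, Ppfia3 moved to the third place with 54.6 CPM per kb and Rims1 to the fourth with 38.1. Rims2 came to 18.9 and passed Ppfia2 at 12.1, and Erc1 reached 12.4, against 19.1 for Erc2. The principal transcript of Rims2, 4719 bases, is annotated without untranslated regions, and that of Rims1 without the one before its start codon. Their counts cover all annotated exons, 10389 bases in Rims2, so the place of Rims2 on this scale is not like for like.

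**Figure D1:**
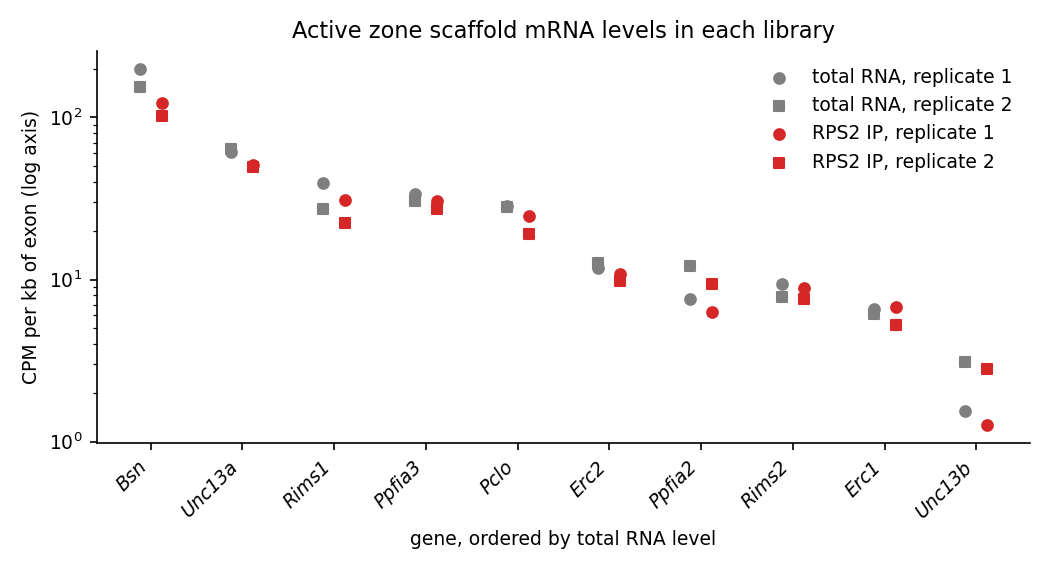
Level of each scaffold mRNA in CPM per kilobase of counted exon (log axis), with genes ordered by their mean in total RNA and 1 point for each of the 2 RPS2 IP and 2 total RNA libraries. Bsn lies between 102.1 and 200.1 in the 4 libraries, while Unc13b lies between 1.26 and 3.08.

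In the IP, the scaffold mRNAs tended to be recovered below their share of total RNA. The log2 ratio of IP over total RNA was below 0 in both pairs for 9 of the 10 members, all but Erc1, a pattern that 32.2% of all genes tested shared. For 5 members, Bsn, Unc13a, Ppfia3, Pclo and Erc2, each IP value was below each total RNA value, which held for 14.9% of all genes. Both patterns were more frequent in long genes. Of the 2895 other tested genes at least as long as the shortest member, 1225 showed the first and 532 the second. The median log2 ratio over the members was -0.23 in pair 1 and -0.33 in pair 2, against 0.01 over all genes in each pair. Ratios within a pair are given with their counting error, which leaves out the variation between replicates and, since no removal of PCR duplicates was named, treats copies of a molecule as separate counts.

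Which members were called depended on whether the libraries were paired by replicate number, a pairing that the sources do not state. In the unpaired edgeR quasi-likelihood test no member passed an adjusted p of 0.05, nor did any of the 12336 genes (0% called). An unadjusted p under 0.05 was found for 349 of the 12336 genes, a smaller share than that cutoff itself. Bsn was the only member with such a p (0.0434). Unpaired DESeq2 called 5 genes, all lower and none of them a member. With the replicate number as a block in the same test, 5 members, Bsn, Pclo, Rims1, Unc13a and Ppfia2, were lower in IP and none was higher, where 7.55% of all genes were called lower and 6.63% higher. Library scaling by size alone left 2 of the 5, Bsn and Ppfia2, and moved the split of all calls from 818 higher and 931 lower to 283 higher and 878 lower. The fitted log2 fold change was below 0 for all 10 members, and for 48.7% of all genes, with a median of -0.29 over the members and 0.01 over all genes. Since the members are long, the 2895 other tested genes of at least 7362 bases are the nearer background. Of these 12.4% were called lower and 3.9% higher, with a median of -0.07, and 1707 had a fitted log2 fold change below 0. The blocked fit has 1 residual degree of freedom, and its errors rest on a dispersion trend shared by all genes.

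Without an offset for GC content and length, Bassoon had the lowest ratio of the members in both pairs. Bsn was at 3190 and 2449 CPM in total RNA of replicates 1 and 2, and at 1962 and 1627 CPM in IP. The groups did not overlap, with IP the lower. The log2 ratio was -0.70 ± 0.015 (counting SE) in pair 1 and -0.59 ± 0.016 in pair 2, on a counted length of 15938 bases. In the blocked fit it was -0.65 ± 0.11 (SE), or 1.56-fold lower in IP, with an adjusted p of 3.55e-07 and a 95% interval from -0.86 to -0.43. With GC content and length in an offset, described further on, it was -0.17 with an adjusted p of 0.401, and the call was lost.

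Pclo was at 638 and 631 CPM in total RNA and at 551 and 427 CPM in IP, again without overlap of the groups. Its log2 ratio was -0.21 ± 0.032 in pair 1 and -0.56 ± 0.031 in pair 2, so the pairs differed by more than their counting error. Over a length of 22457 bases the blocked fit gave -0.39 ± 0.10, or 1.31-fold lower, with an adjusted p of 0.0017. Set against its paralog, the ratio of Bsn was lower by 0.49 ± 0.035 log2 units in pair 1 and by 0.03 ± 0.035 in pair 2. The giant scaffolds thus differed from each other in 1 pair only beyond counting error, and with 2 pairs, where an exact two-sided test cannot go below p = 0.5, no paralog difference was tested.

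In the RIM family the paralogs' ratios differed by more than 2 counting errors in both pairs. Rims1 was at 292 and 199 CPM in total RNA and at 227 and 164 CPM in IP, with ranges that overlapped because replicate 1 was the higher in both groups. Its log2 ratio was -0.36 ± 0.047 and -0.28 ± 0.054 in the pairs, over 7362 bases, and -0.32 ± 0.10 in the blocked fit, or 1.25-fold lower with an adjusted p of 0.0128. Rims2 was at 97.1 and 81.2 CPM in total RNA and at 91.6 and 78.8 CPM in IP. These ranges overlapped too. The ratios of Rims2, over 10389 bases, were -0.08 ± 0.080 and -0.04 ± 0.081, and the blocked value of -0.06 ± 0.11 had an adjusted p of 0.771 and a 95% interval from -0.28 to 0.15. Rims1 minus Rims2 was -0.28 ± 0.093 in pair 1 and -0.24 ± 0.097 in pair 2.

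For the Munc13 primers, Unc13a was at 770 and 806 CPM in total RNA and at 640 and 624 CPM in IP, and the groups did not overlap. Over 12623 bases its log2 ratio was -0.27 ± 0.029 in pair 1, -0.37 ± 0.027 in pair 2 and -0.32 ± 0.10 in the blocked fit (1.25-fold lower, adjusted p 0.0149). Unc13b, the scarce paralog, was at 35.2 and 70 CPM in total RNA and at 28.8 and 63.5 CPM in IP. Its groups overlapped widely, because replicate 2 was higher in both. Over 22746 bases the ratios of Unc13b were -0.29 ± 0.14 and -0.14 ± 0.089, resting on as few as 158 counts in total RNA of replicate 1, and the blocked value of -0.20 ± 0.12 had an adjusted p of 0.295 and an interval from -0.45 to 0.04. Unc13a minus Unc13b was 0.02 ± 0.14 in pair 1 and -0.23 ± 0.093 in pair 2.

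Neither ELKS gene was called. Erc1 was at 107 and 99.4 CPM in total RNA and at 111 and 84.7 CPM in IP, so the total RNA values fell between the IP values. Over 16271 bases its log2 ratio was 0.04 ± 0.075 in pair 1 and -0.23 ± 0.075 in pair 2, the only change of sign among the members, and the blocked value was -0.09 ± 0.11 with an adjusted p of 0.632 and an interval from -0.31 to 0.12. Erc2, the ELKS paralog known for its restriction to brain, was at 115 and 123 CPM in total RNA and at 105 and 94.6 CPM in IP, without overlap. Its ratios, over 9728 bases, were -0.13 ± 0.074 and -0.38 ± 0.069, and the blocked value of -0.26 ± 0.11 missed the threshold with an adjusted p of 0.0835. Erc2 minus Erc1 was -0.17 ± 0.11 and -0.15 ± 0.10.

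Of the liprins, Ppfia2 was at 82.4 and 132 CPM in total RNA and at 69.1 and 102 CPM in IP, overlapping between the groups because replicate 2 was the higher in each. Within the pairs its log2 ratio over 10903 bases was -0.25 ± 0.088 and -0.38 ± 0.067, and the blocked fit gave -0.32 ± 0.11, or 1.25-fold lower with an adjusted p of 0.0276. Ppfia3 was at 266 and 242 CPM in total RNA and at 239 and 214 CPM in IP. Its groups did not overlap, yet the difference was small. The ratios of Ppfia3, over 7899 bases, were -0.15 ± 0.049 and -0.18 ± 0.048, and the blocked value of -0.16 ± 0.10 had an adjusted p of 0.293 and an interval from -0.36 to 0.03. Ppfia2 minus Ppfia3 was -0.10 ± 0.10 and -0.20 ± 0.082.

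**Figure D2:**
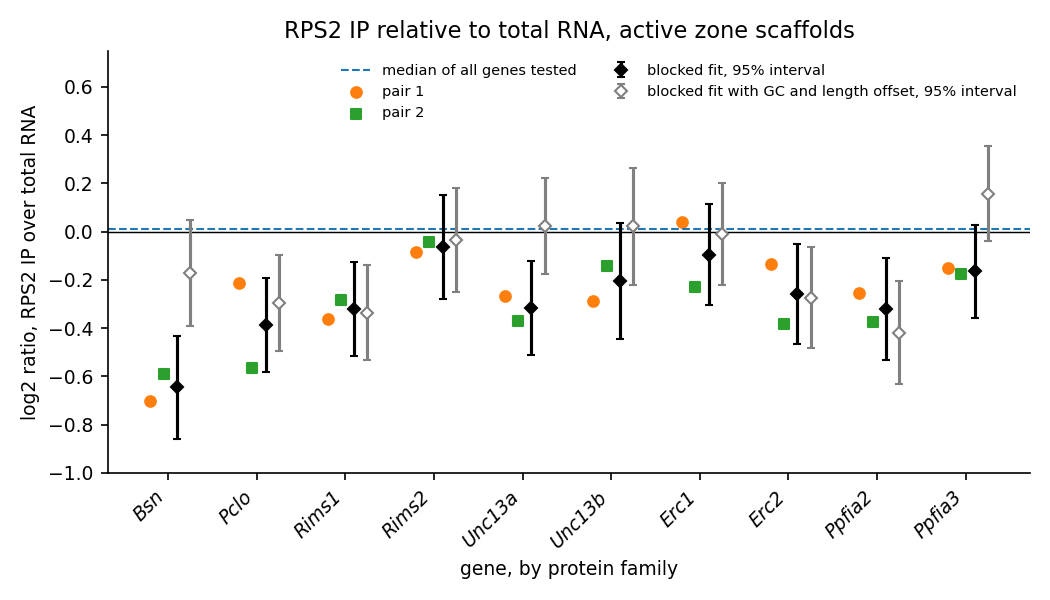
Log2 ratio of RPS2 IP over total RNA for each scaffold gene by family, with a point without error bar for each of the 2 pairs. Diamonds give the blocked fit (filled) and the blocked fit with GC content and length in the offset (open), each with its 95% interval. The dashed line is the median of all genes tested. Bsn sits lowest in both pairs, at -0.70 and -0.59, and Erc1 is the only gene with a pair above 0.

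Across all genes the blocked ratio moved with base composition and with length. Ordered by GC content, the median log2 ratio went from 0.15 in the 10% of genes with the lowest GC content to -0.19 in the 10% with the highest, and the share called lower from 1.62% to 21.7%. Ordered by exonic length in the same way, it went from 0.15 to -0.09, and the share called lower from 3.41% to 14.9%. Over the genes tested, Spearman's rho of the ratio was -0.29 with GC content and -0.17 with length, values that describe genes of the same 4 libraries and carry no p.

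The members span this range of GC content. Ppfia2 had the lowest at 42.2%, followed by Pclo at 46.4%, Erc2 at 47.6%, Erc1 at 47.7%, Rims2 at 48.6%, Rims1 at 49.7% and Unc13b at 49.8%. Unc13a at 56.4%, Bsn at 58.2% and Ppfia3 at 59.3% were the GC-rich members. Among the 10, the ratio had a Spearman's rho of 0.07 with GC content and -0.10 with length. In the 4 other genes at least as long and as GC-rich as Bsn the median ratio was -0.49, in 28 such genes for Unc13a it was -0.44, and in 53 for Ppfia3 it was -0.45. For Ppfia2, 937 genes gave -0.11, and for Rims1, 1168 genes gave -0.20.

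When GC content and length were both taken out of each library by an offset in the blocked fit, the members split. Pclo (-0.30, adjusted p 0.045), Rims1 (-0.34, 0.0169) and Ppfia2 (-0.42, 0.00391) were still lower in IP, which made 3 of 10 where 3.44% of all genes were called lower and 4.4% higher. The calls for Bsn (-0.17, adjusted p 0.401) and Unc13a (0.02, 0.938) were lost. The number of other genes at least as long and as GC-rich was 4 for Bsn, 28 for Unc13a, 29 for Pclo and 11 for Unc13b, and with the offset the median over those genes was 0.01 for Bsn and 0.07 for Unc13a. The median over the members became -0.10, against -0.003 over all genes. Ppfia3 (0.16, adjusted p 0.383) and Unc13b (0.02, 0.95) changed sign without a call, and Erc2 stood at -0.27 with an adjusted p of 0.0945. With GC content alone in the offset, Bsn (-0.53, adjusted p 3.63e-04), Pclo, Rims1, Ppfia2 and Erc2 (0.0101) were called and Unc13a was not (0.109). With length alone, Bsn (-0.56, adjusted p 1.64e-05), Pclo and Rims1 were called, and Unc13a (0.0796) and Ppfia2 (0.0954) were not. The offset also moved the paralog differences. Bsn minus Pclo went from -0.26 in the blocked fit to 0.12, and Ppfia2 minus Ppfia3 from -0.16 to -0.58. What GC content and length contribute to the ratios of Bsn and Unc13a was not tested beyond these fits.

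**Figure D3:**
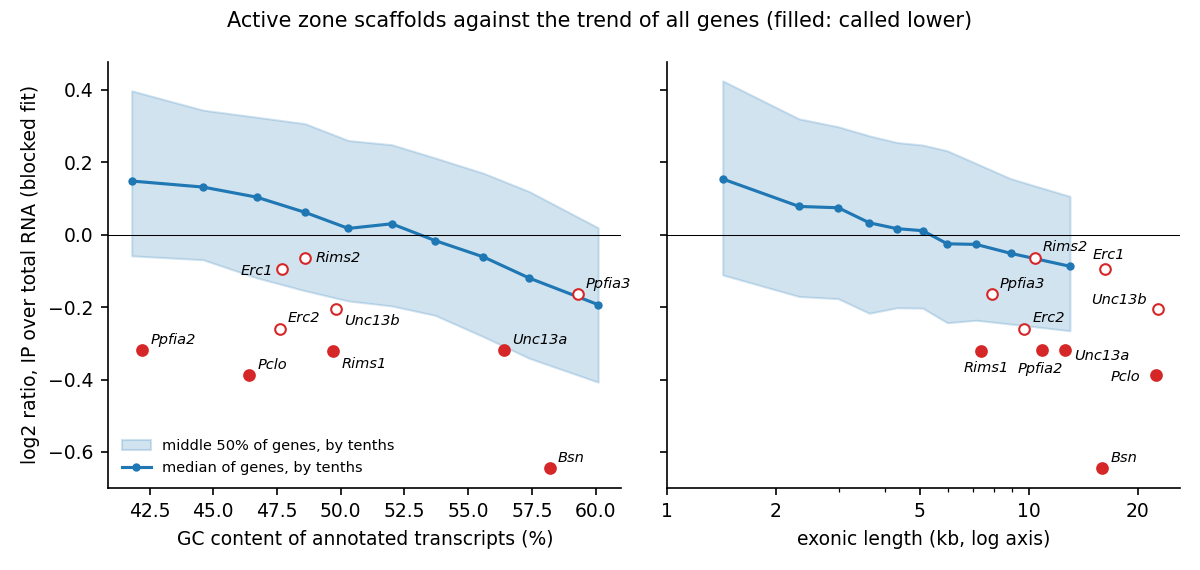
Blocked log2 ratio of IP over total RNA against GC content of annotated transcripts (left) and exonic length in kilobases (right, log axis), with the median and middle 50% of all genes in 10 equal bins in blue and the scaffold genes in red, filled where called lower. Ppfia2, at 42.2% GC, lies at -0.32 where the median of its bin is 0.15, while Ppfia3 lies on the falling trend at the GC-rich end.

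Other active zone genes did not share one direction. Of 31 further genes of the compartment, all of them tested, 7 were lower in IP in the blocked fit, 3 were higher and 21 were not called, with a median of -0.12, where 7.55% of all genes were called lower and 6.63% higher. In the unpaired fit none was called. Stx1a alone of the 31 had an unadjusted p under 0.05 (0.0315), as did 349 of all 12336 genes. With both features in the offset, 1 was lower and 3 were higher, where 3.44% of all genes were called lower and 4.4% higher.

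Among the pores of presynaptic calcium channels, which the RIM proteins tether, Cacna1a (P/Q-type) was 1031 and 665 CPM in total RNA and 699 and 479 CPM in IP, with a blocked log2 ratio of -0.52 ± 0.10 (adjusted p 1.3e-05). Cacna1b (N-type) had -0.40 ± 0.10 (9.19e-04). The third pore of the list, Cacna1e, was not called. Of the 3 LAR-type receptor phosphatases, presynaptic adhesion molecules that bind liprin-alpha, Ptprs had -0.41 ± 0.10 (adjusted p 0.00112) and Ptprf -0.36 ± 0.10 (0.00403), and Ptprd was not called. Tspoap1, a RIM-binding protein, had -0.40 ± 0.11 (adjusted p 0.0045), Apba1, a Mint adaptor, -0.37 ± 0.10 (0.00375), and Git1, a partner of Piccolo and liprin, -0.29 ± 0.10 (0.0365). The other RIM-binding protein (-0.18, adjusted p 0.279), Mint gene (-0.24, 0.0896) and GIT gene (-0.13, 0.654) of the list were not called. Apba1 was the only one of the 7 still called with the offset (-0.30, adjusted p 0.0377).

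The higher genes encode proteins that the scaffolds act on. Stx1a encodes a syntaxin, the SNARE protein that Munc13 opens for assembly. It was at 110 and 110 CPM in total RNA and at 186 and 150 CPM in IP, both IP libraries above both total RNA libraries, with a blocked log2 ratio of 0.60 ± 0.10 (adjusted p 8.24e-07). Rab3a and Rab3c, vesicle GTPases bound by RIM, had 0.41 ± 0.10 (adjusted p 7.14e-04) and 0.41 ± 0.11 (0.00215). The counted exons of Stx1a and Rab3a span 2666 and 2226 bases, shorter than any member, while Rab3c spans 12049. With both features in the offset the 3 stayed called, at 0.66, 0.37 and 0.34 for Stx1a, Rab3a and Rab3c. With GC content alone in the offset, Rab3c was not called (0.24, adjusted p 0.125). Of the 11 blocked fits, 11 called Stx1a, 10 Rab3a and 8 Rab3c.

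**Figure D4:**
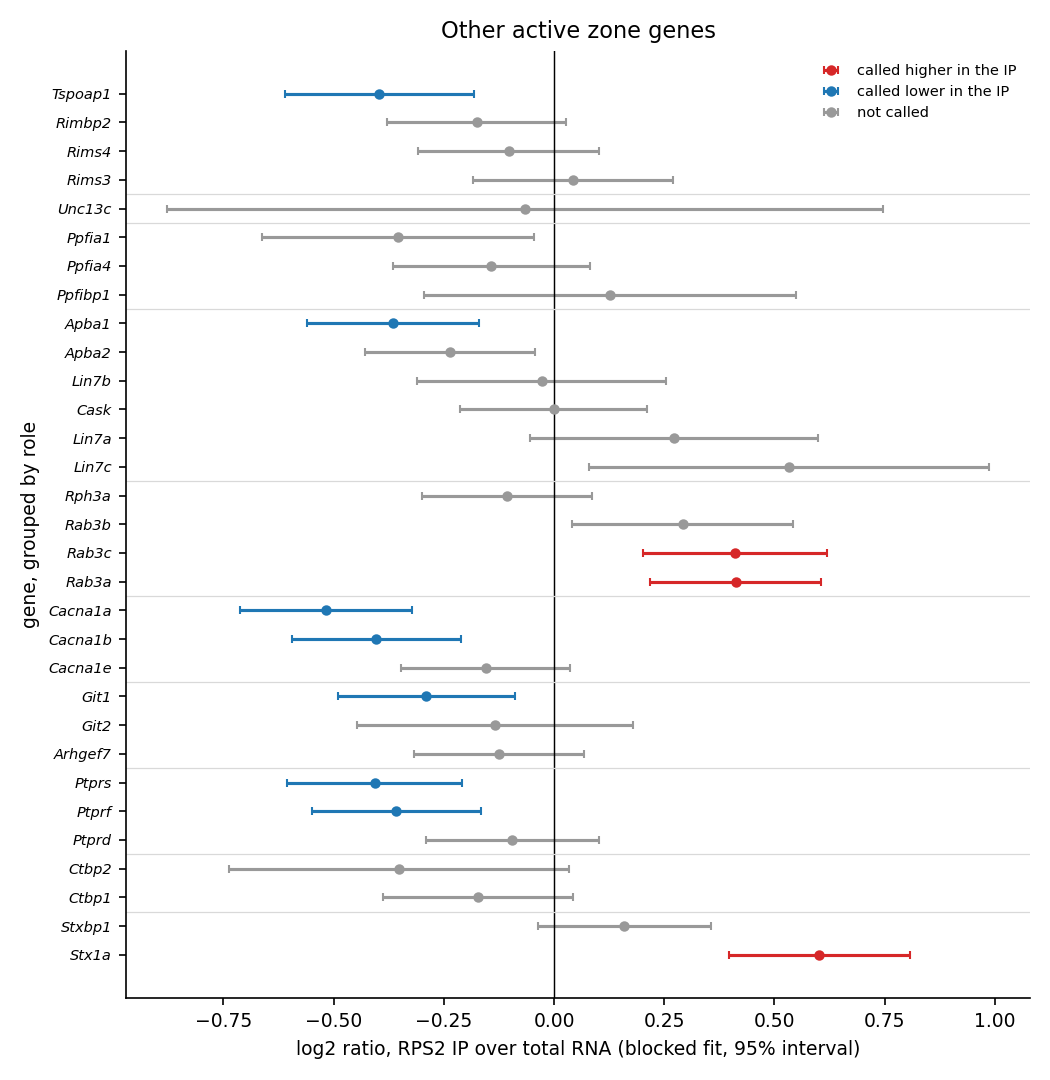
Blocked log2 ratio of RPS2 IP over total RNA, with 95% intervals, for 31 other active zone genes grouped by role. Stx1a, Rab3a and Rab3c lie to the right of 0, the calcium channel pores Cacna1a and Cacna1b and the phosphatases Ptprs and Ptprf to the left.

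The replicates differed from each other more than IP differed from total RNA. Over all genes the SD of the log2 difference between replicates was 0.783 in total RNA and 0.69 in IP, while that of IP over total RNA was 0.472 in pair 1 and 0.498 in pair 2. Among the scaffold mRNAs, Unc13b was 1.98-fold higher in replicate 2 in total RNA and 2.2-fold higher in IP. Ppfia2 was 1.6-fold and 1.47-fold higher in replicate 2. Both members thus kept their paired ratio while their level differed between replicates.

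In 6 members, Bsn, Pclo, Rims1, Rims2, Erc1 and Ppfia3, replicate 2 was the lower in both groups, and in Unc13a and Erc2 the groups had opposite signs. Rims1 differed most of the 6, by -0.55 on the log2 scale in total RNA and -0.47 in IP, and Bsn by -0.38 and -0.27. Pclo differed by -0.02 in total RNA and by -0.37 in IP. The summed astrocyte and microglial markers were also lower in replicate 2 in both groups, while Mbp of the oligodendrocyte line was higher, at 32.7 and 41.1 CPM in total RNA and 35.6 and 44.3 CPM in IP. Gfap, the astrocyte filament, was at 678 and 114 CPM in total RNA of replicates 1 and 2 and at 725 and 121 CPM in IP, and C1qa of microglia at 34.3 and 1.97 CPM in total RNA. Fewer cells of a type and less RNA per cell cannot be told apart in bulk libraries, and the part of glial RNA in the members' differences between replicates was not tested.

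**Figure D5:**
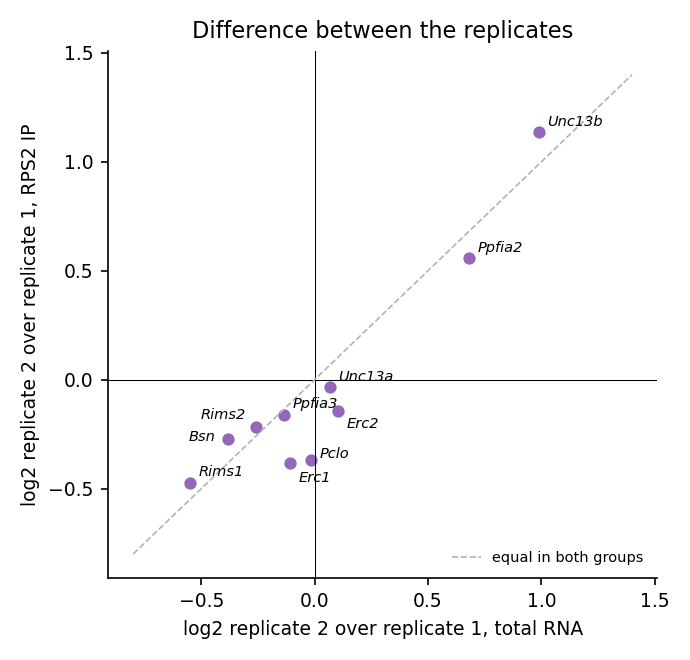
Log2 difference of replicate 2 over replicate 1 for each scaffold gene, in total RNA (horizontal) and in RPS2 IP (vertical), with a dashed line where both are equal. Unc13b and Ppfia2 lie at the upper right, near the line, and Rims1 at the lower left, with -0.55 and -0.47.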

How the data were processed

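RPS2 eCLIP and total RNA libraries of primary cortical neurons (2 each) were deposited as raw read counts per gene with the exonic length of each gene. The authors ran featureCounts 1.5.3 by strand, per the file headers, on an mm10 annotation, and reads of several loci or genes were not counted. Adapter trimming used cutadapt and alignment STAR. The sources do not say whether the replicates are separate cultures. Unpaired p-values thus measure the spread between these samples. Blocked p-values measure only the spread left after the difference between replicates is taken out.

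Of 31053 genes, 30934 identifiers carried a GENCODE M21 symbol. GC content was averaged over annotated transcripts. Genes that passed filterByExpr were scaled by TMM and tested by quasi-likelihood in edgeR 4.0.16 (R 4.3.3), with Benjamini-Hochberg adjustment over 12336 genes. Ratios within a pair used log2 CPM with a prior count of 2. Libraries were paired by replicate number, since the methods say total RNA was taken from samples before the pulldown. That equal numbers mean the same sample is inferred and not stated by the sources. Deviations from group means correlated at 0.733 between same-numbered libraries. The biological coefficient of variation was 29.7% unpaired and 7.93% blocked. Alternatives used DESeq2 1.42.0, limma 3.58.1, other scalings, filters, offsets by loess (span 0.5) for GC content and length, thinning, and leaving out libraries. Scripts were tested on simulated data. The members, the 31 other active zone genes and the markers were chosen with earlier results of these data known. Named genes are the members, the called genes among the 31, the markers with the highest and lowest level of each list and the most counted gene. Cacna1e, Ptprd and Gfap lie outside this rule and were named after their values were seen. A further gene of the planned list is not reported here.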

Additional observations from a re-analysis of the deposited data

How the results depend on the processing

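Depth limits Unc13b most, with as few as 158 counts in a library, where the other members had at least 370. The replicate block raised the genes called from 0 to 1749, the members called from 0 to 5 and the other active zone genes called from 0 to 10. Without the block, DESeq2 called 5 genes and edgeR without a low-count filter 14, no member among them, and library size alone moved the members' median to -0.39. Leaving out 1 library gave 1 to 8 genes called, 0 members and a median from -0.33 to -0.20. With the block, the counts of genes, members and other active zone genes called were 1161 (283 higher, 878 lower), 2 and 5 with library size alone, 540 (158 higher, 382 lower, with no adjusted p for 7653 genes), 3 and 7 in DESeq2, 1612, 5 and 10 in limma-voom, 1468, 3 and 9 without a filter, 1804, 5 and 10 with at least 10 counts in every library, 966 (542 higher, 424 lower), 3 and 4 with both GC content and length in the offset, 1768, 5 and 10 without Gm42418 and mitochondrial genes, and 1115, 4 and 8 after thinning to the shallowest library. Offsets chosen after the data were seen gave 1387, 5 and 7 for GC content alone and 1625, 3 and 11 for length alone. The members' median was -0.37 with the block and library size alone and -0.10 with the offset for both features. Of the 11 blocked fits, 10 called Bsn, 10 Pclo, 8 Rims1, 7 Unc13a, 7 Ppfia2 and 1 Erc2. The sign changed with the offset for Unc13a (0.0227), Unc13b (0.0223) and Ppfia3 (0.16), none of them called there. In the unpaired fit it changed without 1 library for Unc13b (-0.88 to 0.39, above 0 without IP replicate 1, at 0.27, or total RNA replicate 2), Rims2 (-0.19 to 0.0689, above 0 without IP replicate 2, at 0.04, or total RNA replicate 1), Erc1 (-0.29 to 0.0911, above 0 without IP replicate 2) and Ppfia2 (-0.64 to 0.0508, above 0 without total RNA replicate 2). The cause was not tested.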
